A study of Mus musculus with 6 samples.

Results

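Rpl3l and Rpl3 are 2 of the 54532 genes in a table of heart messenger RNA from Ythdc1 conditional knockout mice. They encode the muscle form and the ubiquitous form of the same large-subunit ribosomal protein, uL3. The rows were taken by gene name, and the pair was chosen by its FPKM in this contrast, in which an earlier look at these data had shown Rpl3l low in the knockout. Their levels and their ratio in this contrast are therefore a description and were not tested. Hearts came from mice with floxed Ythdc1 alleles and no deletion (Ythdc1flox/flox, flox control, 3 libraries) and from Ythdc1-CKO mice (CKO, 3 libraries), all kept on normal chow for 15 days. The animals were independent biological replicates per the labels' protocols. Age, strain, sex and the promoter driving the deletion are not given in the sources used here, and the abbreviation HKO in the series text was taken to mean the mice labelled CKO.

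Protein uL3 sits close to the peptidyl transferase centre, where the ribosome joins amino acids. Most cells make it from Rpl3. Striated muscle also makes it from Rpl3l, whose messenger RNA is largely restricted to heart and skeletal muscle and whose product takes the place of the Rpl3 product in the large subunit. In mice, Rpl3l is known to rise in heart and muscle after birth while Rpl3 declines, to fall during muscle growth or injury, and, when deleted, to be accompanied by more Rpl3. A heart sample holds cardiomyocytes and non-muscle cells, and only the former are known to use Rpl3l. In such bulk samples fewer cells of a type and less RNA per cell cannot be told apart.

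The libraries held between 17434296 and 19360428 gene-assigned reads, recovered from the deposited FPKM (fragments per kilobase of gene length, scaled by a divisor per library). That divisor was not the plain read total. It was 16906960 for flox control 1, which held 17748541 reads, and 19457628 for CKO 2, which held 17872221. Levels and sums in FPKM thus carry a further scaling between libraries. The targeted gene Ythdc1, which encodes a nuclear reader of N6-methyladenosine, measured 4.31, 3.64 and 4.10 FPKM in the control hearts and 2.39, 2.57 and 2.34 FPKM in the CKO hearts; here and below, values stand in the order of replicates 1, 2 and 3. That decrease passed in limma over all genes (adjusted p = 0.0150) but did not pass in 6 of the alternatives run. Among these were leaving out flox control 1 (0.0712), flox control 3 (0.0648) or CKO 3 (0.0540), and TPM scaling (0.0944). The sex-linked genes set 1 library apart from the others: CKO 3 held 12.4 FPKM of Xist and 0.350 FPKM of Ddx3y, where the other 5 libraries held at most 0.0155 and at least 10.8 FPKM. Mitochondrially encoded genes took 14.4% of reads in CKO 2 and 18.4% to 21.0% in the others.

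Rpl3l (ENSMUSG00000002500) lies on the plus strand of mouse chromosome 17, at chr17:24727820-24736143 in GRCm38, and Rpl3 (ENSMUSG00000060036) on the minus strand of chromosome 15, at chr15:80077791-80091868. In the GENCODE annotation the full-length transcript of each gene has 10 exons. That of Rpl3l (Rpl3l-202) is 1375 bases long and that of Rpl3 (Rpl3-201) is 1351 bases long. The coding sequences, 1224 and 1212 bases with the stop codon, matched at 898 of 1209 aligned bases, or 74.3%. Identity ran from 64.7% in exon 7 to 80.7% in exon 6, leaving aside the 3 coding bases of exon 1.

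The following stretches show how far a read of 150 bases can tell the genes apart. Of all 150-base windows of the coding alignment without gaps, the most alike differed at 29 bases. It spans coding bases 685 to 834, in exons 5 and 6, at chr17:24733492-24733729 for Rpl3l and chr15:80079705-80080369 for Rpl3. Capitals mark bases that differ between Rpl3l and Rpl3 in the first 2 lines, and the base that differs from Rpl3 in the line of Rpl3-ps1, a processed pseudogene of Rpl3 on the plus strand at chrX:13203256-13203405.
Rpl3l: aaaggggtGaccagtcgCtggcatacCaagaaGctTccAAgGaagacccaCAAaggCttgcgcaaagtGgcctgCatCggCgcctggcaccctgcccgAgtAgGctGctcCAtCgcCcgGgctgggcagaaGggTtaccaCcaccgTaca
Rpl3: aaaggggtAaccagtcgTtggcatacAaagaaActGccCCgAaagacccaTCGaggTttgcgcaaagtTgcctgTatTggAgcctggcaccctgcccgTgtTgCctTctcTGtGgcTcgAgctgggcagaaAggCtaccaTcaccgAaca
Rpl3-ps1: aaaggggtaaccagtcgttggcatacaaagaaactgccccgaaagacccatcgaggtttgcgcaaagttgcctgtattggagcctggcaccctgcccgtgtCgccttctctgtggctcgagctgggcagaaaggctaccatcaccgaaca

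The least alike window differed at 48 bases and spans coding bases 166 to 315, in exons 2 and 3, at chr17:24728479-24730987 and chr15:80081665-80082420. Capitals again mark the bases that differ between the paralogs, and the pseudogene Rpl3-ps1 matches Rpl3 at every base of this window.
Rpl3l: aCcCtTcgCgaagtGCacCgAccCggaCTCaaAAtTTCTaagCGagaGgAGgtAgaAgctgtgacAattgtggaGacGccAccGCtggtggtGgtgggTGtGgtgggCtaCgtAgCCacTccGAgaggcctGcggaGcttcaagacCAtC
Rpl3: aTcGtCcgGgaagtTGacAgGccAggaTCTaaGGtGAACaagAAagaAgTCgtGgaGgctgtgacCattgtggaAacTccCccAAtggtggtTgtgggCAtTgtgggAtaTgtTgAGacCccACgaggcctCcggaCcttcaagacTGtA

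No 30-base stretch of the Rpl3l transcript occurred in a transcript of any other annotated gene, on either strand. The longest run of identical bases between the coding sequences of Rpl3l and Rpl3 was 22. Rpl3, by contrast, shared 853 of the 1202 windows of 150 bases in its main transcript (71.0%) exactly with Rpl3-ps1. Its coding sequence and Rpl3-ps1 differed at 2 of 1209 aligned bases. In all, 33 annotated genes of the table, pseudogenes of Rpl3-related sequence, shared at least 1 stretch of 30 bases with the main Rpl3 transcript. The level of Rpl3 is therefore uncertain to the extent that the authors' counting gave its reads to these copies or left them out.

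Rpl3l messenger RNA was 5.00-fold lower in CKO hearts, and Rpl3 was 1.23-fold higher, as ratios of mean FPKM. Rpl3l measured 45.0, 38.2 and 34.0 FPKM in the control hearts and 10.5, 4.60 and 8.36 FPKM in the CKO hearts. Every CKO library lay far below every control, with CKO 2 the lowest, and the groups did not overlap. Mean levels of 39.1 ± 5.53 and 7.81 ± 2.98 FPKM (SD, n = 3 each) differed by -2.24 (SE 0.26) on the log2(FPKM + 1) scale. This was the decrease of rank 13 among the 12144 genes tested, those with a mean of at least 1 FPKM. Of these 12144 genes, 17.4% were lower in every CKO library than in any control, and 5.49% were called lower by limma. The rule that chose Rpl3l used this contrast, so nothing is read from that comparison.

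Rpl3 measured 83.4, 115.6 and 96.0 FPKM in the control hearts and 120.6, 121.8 and 121.3 FPKM in the CKO hearts. The CKO libraries were nearly equal to each other and lay above all controls, though flox control 2 came close to them. Mean levels of 98.3 ± 16.2 and 121.2 ± 0.616 FPKM (SD, n = 3 each) differed by 0.31 (SE 0.14) on the log2(FPKM + 1) scale. Leaving out flox control 1 gave 0.20 and leaving out flox control 2 gave 0.43. Of all genes tested, 16.9% were higher in every CKO library than in any control.

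**Figure D1:**
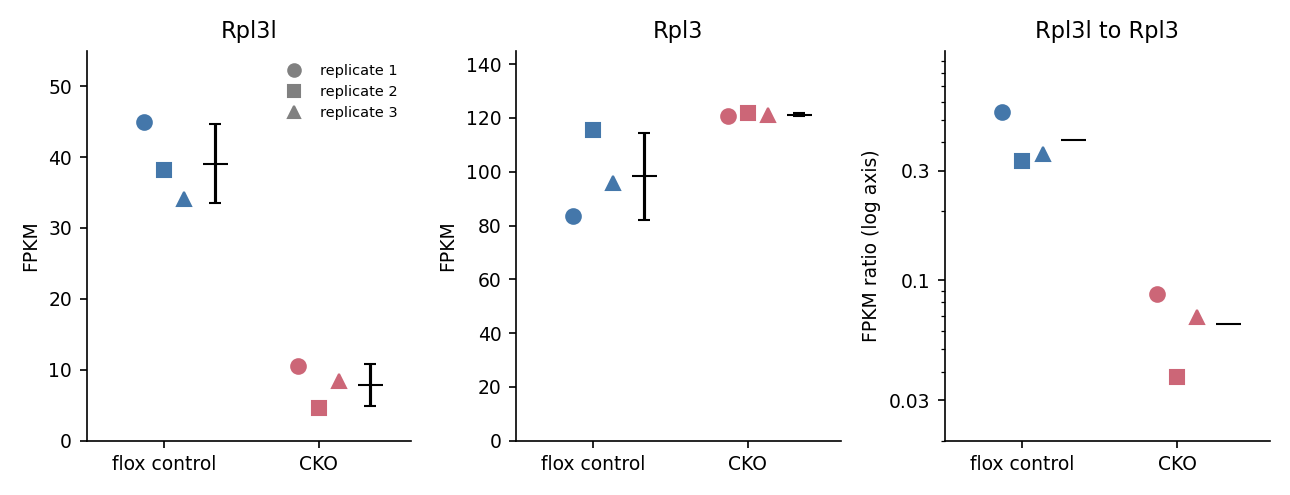
Levels of Rpl3l and Rpl3 in FPKM (left and middle) and the ratio of the FPKM values on a log axis (right), with 1 point per library; bars give the mean and, in the first 2 panels, the SD over 3 libraries. Rpl3l spans 34.0 to 45.0 FPKM in flox controls and 4.60 to 10.5 FPKM in CKO, Rpl3 lies near 121 FPKM in every CKO library, and the ratios of the 2 groups do not overlap.

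The FPKM ratio of Rpl3l to Rpl3, in which the scaling of the library cancels, was 0.539, 0.330 and 0.355 in the control hearts and 0.0869, 0.0378 and 0.0690 in the CKO hearts. In the controls there were thus between 1.85 and 3.03 FPKM of Rpl3 for each FPKM of Rpl3l, and in CKO hearts between 11.5 and 26.5. The mean ratio was 0.408 ± 0.114 and 0.0646 ± 0.0249 (SD, n = 3 each), and the mean log2 ratio differed by -2.71. Leaving out any 1 library kept that difference between -2.96 and -2.36.

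Taken as a share of the summed FPKM of both genes, Rpl3l made up 35.0%, 24.8% and 26.2% in the control hearts and 8.0%, 3.64% and 6.45% in the CKO hearts. Flox control 1 stood highest, where Rpl3 was lowest and Rpl3l highest. The shares rest on 1101 to 1250 Rpl3l reads in each control and on 309, 147 and 249 in CKO 1, 2 and 3. Their 95% Wilson intervals were narrow beside the difference between the groups: the lowest control share had an interval of 23.6% to 26.0% and the highest CKO share one of 7.20% to 8.88%. These intervals cover counting error only.

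The summed FPKM of both genes was 128.4, 153.8 and 130.0 in the control hearts and 131.0, 126.4 and 129.6 in the CKO hearts. The groups overlapped, with means of 137 ± 14.2 and 129 ± 2.38 FPKM (SD, n = 3 each). The size of this sum and of the shares depends on the length each gene is given. The deposited length of Rpl3, 3175 bases, is the union of the exons of 7 transcripts, some with retained introns, and that of Rpl3l, 1643 bases, is the union of 3. With the lengths of the main transcripts, which were tried only once the values were known, Rpl3l made up 21.5%, 14.4% and 15.3% in the control hearts and 4.23%, 1.88% and 3.39% in the CKO hearts. The mean ratios were then 0.207 and 0.0328, and the difference in log2 ratio was unchanged, since both lengths are fixed across libraries. The summed level became 278 ± 35.2 and 294 ± 2.18 FPKM, again with overlapping groups.

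Adding the reads counted for the near copies to Rpl3 moved the ratio little. Reads with several matches that the counting may have left out cannot be restored this way, so the ratio stays uncertain to that extent. Rpl3-ps1 held 314, 488 and 476 reads in the control hearts and 776, 535 and 591 in the CKO hearts, and the other 32 copies together held far fewer. The copies made up 6.78% to 7.56% of the combined reads in the control hearts and 10.5%, 6.90% and 8.07% in the CKO hearts, so that CKO 1 stood apart. In FPKM, Rpl3-ps1 measured 19.3 ± 3.82 in controls and 28.5 ± 6.64 in CKO (SD, n = 3 each), with overlapping groups, and did not pass (limma adjusted p = 0.149). It is X-linked, and CKO 3, with the sex-linked expression of a female, lay between the other CKO libraries. With all copies added and main transcript lengths, the mean ratio of Rpl3l to Rpl3 was 0.193 in the control hearts and 0.0299 in the CKO hearts.

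Summed markers of the cells a heart sample can hold overlapped between the groups, those of atrial cells apart. The cardiomyocyte and fibroblast sums overlapped only through CKO 3. The 14 cardiomyocyte markers, among them Myh6, Tnnt2 and Actn2, summed to 15465, 16341 and 14600 FPKM in the control hearts. In the CKO hearts they summed to 11765, 13105 and 16686 FPKM, 0.896 times the control mean. Their median difference on the log2(FPKM + 1) scale was -0.12, and -0.27 when CKO 3 was left out. Of these markers, 8 had a difference below 0 and 6 above 0. In 3 of them, Tnni3, Ryr2 and Pln, the groups did not overlap, as was true of 34.3% of genes tested. All 3 were lower in CKO. Limma called 1 (Tnni3) lower and 13 did not pass, or 7.14% called. Over all genes tested limma called 11.2%, beside which this and the following counts stand. Per 1000 FPKM of this sum, Rpl3l measured 2.91, 2.33 and 2.33 FPKM in the control hearts and 0.891, 0.351 and 0.501 FPKM in the CKO hearts. That is a 4.35-fold difference in means with no overlap. The 10 fibroblast markers summed to 587, 606 and 756 FPKM in the control hearts and 810, 901 and 662 FPKM in the CKO hearts. Of them, 1 was called higher (Tcf21). The endothelial sum was 461 to 500 and 417 to 536 FPKM, with Vwf called higher and Tie1 lower. The mural sum was 453 to 812 and 403 to 561 FPKM, with Abcc9 called lower, and the erythroid sum was 745 to 1148 and 657 to 1310 FPKM. Macrophage markers summed to 109 to 204 and 91.1 to 431 FPKM, highest in CKO 1. Of the macrophage and erythroid markers 0 were called by limma or voom, and 0 had an unadjusted p under 0.05. Marker calls hung on single libraries. Of the fibroblast markers 0 were called when flox control 1, flox control 2 or CKO 3 was left out. The endothelial list had 0 called without flox control 2, CKO 2 or CKO 3, and the mural list 0 without flox control 1, flox control 3 or CKO 3.

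Skeletal muscle, the other tissue known for Rpl3l, left little trace. Its 10 markers summed to at most 2.83 FPKM in any library, none reached the filter, and Myod1 and Myf5 were listed at 0 in every library. The 6 atrial markers differed in mixed directions, with 4 lower and 2 higher in the CKO mean. Myl7, an atrial myosin light chain gene, measured 154, 56.6 and 244 FPKM in the control hearts and 39.2, 24.1 and 40.7 FPKM in the CKO hearts (limma adjusted p = 0.0631). Myl4, another, measured 24.8, 7.40 and 31.6 FPKM and 4.54, 4.72 and 1.93 FPKM (0.0534). Neither overlapped between the groups, and both were low in flox control 2. The median difference of the list was -1.61 on the log2(FPKM + 1) scale, while its summed level went the other way through Nppa and was 409, 155 and 398 FPKM in the control hearts and 984, 551 and 2103 FPKM in the CKO hearts, with Nppa called higher and Sln lower. Without flox control 3, 0 atrial markers were called. The part of these cell types in the level of Rpl3l was not tested.

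Few of the other cytosolic ribosomal protein genes passed. Of 45 large-subunit genes tested, 0 were called in either direction by limma, against 11.2% of all genes tested. One, Rpl10, had an unadjusted p under 0.05, and voom on recovered reads called it. Their median difference was 0.14 on the log2(FPKM + 1) scale, beside 0.01 over all genes tested. Of their differences 43 of 45 were above 0, beside 6204 of 12144 over all genes tested. The large-subunit median was 0.07, with 35 of 45 above 0, when flox control 1 was left out. It was 0.27, with all 45 above 0, when flox control 2 was. The 32 small-subunit genes had a median of 0.19, which was 0.11 and 0.31 when the same controls were left out. One of them, Rps27, was called higher, from 91.6 ± 9.85 to 152 ± 13.7 FPKM (SD, n = 3 each, limma adjusted p = 0.0194). It did not pass when flox control 1 (0.0526), 2 (0.0672), 3 (0.0784) or CKO 3 (0.0584) was left out. Rpl10 measured 134 ± 13.2 and 192 ± 18.7 FPKM and Rpl19 223 ± 34.0 and 277 ± 7.51 FPKM (limma adjusted p = 0.0528 and 0.203).

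Within this family Rpl3 stood toward the upper end. Of the 77 other ribosomal protein genes tested, 10 had a larger log2 difference than Rpl3 and 67 a smaller one, while all 77 lay above Rpl3l. The rule that chose Rpl3l and Rpl3 used this contrast, so nothing is read from their place in the family. Per 1000 FPKM of the 46 other large-subunit genes summed, Rpl3 measured 15.9, 16.4 and 17.3 FPKM in the control hearts and 17.6, 18.4 and 18.7 in the CKO hearts. All CKO libraries were thus above all controls, by 1.10-fold in the mean. The summed large-subunit level itself was 5234, 7050 and 5561 FPKM in the control hearts and 6863, 6613 and 6486 FPKM in the CKO hearts, low in flox controls 1 and 3, the same libraries in which Rpl3 was low. Many ribosomal protein genes have processed pseudogenes, and a few were listed far below their family, such as Rpl24 at 0.796 ± 0.256 and 0.878 ± 0.354 FPKM, under the filter. Levels across the family may therefore be uncertain in the way that of Rpl3 is. Stretches shared with copies were not examined for the other members, so this was not tested.

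**Figure D2:**
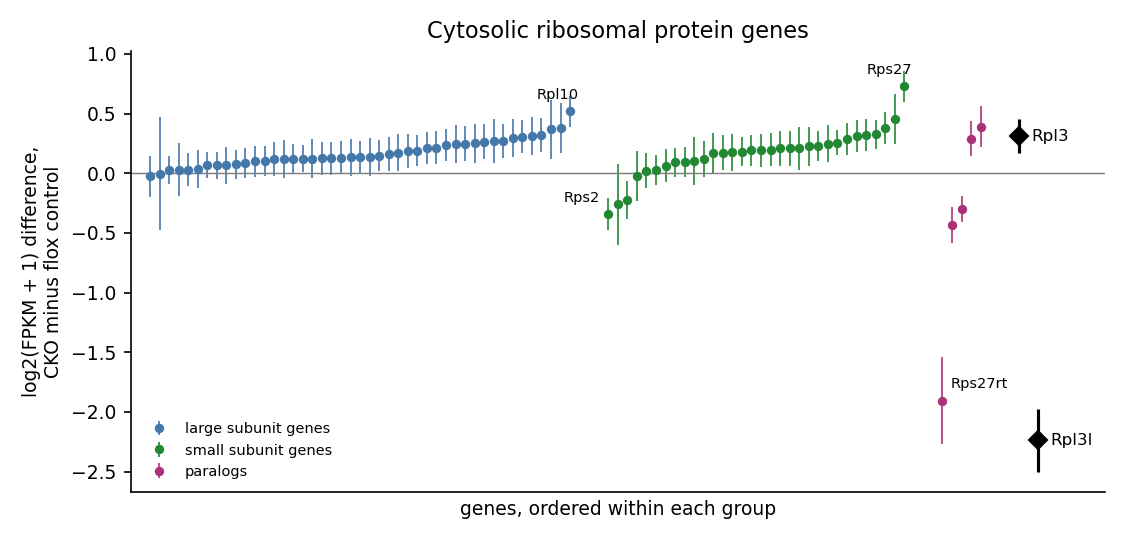
Difference in log2(FPKM + 1), CKO minus flox control, with limma standard errors, for the tested cytosolic ribosomal protein genes of the large subunit (45) and small subunit (32), 5 tested paralogs, and Rpl3 and Rpl3l (diamonds); genes are ordered by value within each group. Most family members lie slightly above 0, Rpl3 at 0.31 sits near the top of the large-subunit genes, and Rpl3l at -2.24 lies below every other point.

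Rpl3l is one of several ribosomal protein paralogs in the mouse, and the others spanned a wide range of levels. Of 8 such genes examined, 5 passed the filter. Rpl10l was listed at 0 in all libraries, while Rpl36al and Rpl39l stayed below 1 FPKM in the mean. Rpl22l1, the paralog of Rpl22, measured 10.5 ± 2.19 and 7.43 ± 0.820 FPKM (limma adjusted p = 0.116), and Rpl7l1 14.8 ± 1.17 and 11.9 ± 1.25 FPKM (0.125). Rps4l measured 36.1 ± 5.47 and 47.9 ± 8.32 FPKM (0.193), and Rps27l 67.8 ± 9.29 and 82.9 ± 9.60 FPKM (0.246). Rps27rt, a retrogene copy of Rps27, was the only one called, and it fell from 160 ± 85.8 to 38.7 ± 6.46 FPKM (adjusted p = 0.0240). Its control values were widely spread, at 90.8, 256 and 134 FPKM, and the gene did not pass when flox control 3 (0.0720), CKO 2 (0.0720) or CKO 3 (0.0725) was left out. Reads of Rps27 and Rps27rt may be split between the copies, which leaves both values uncertain.

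Of the genes known to serve uL3 in particular, 0 of 2 passed in limma or by voom, and 1, Grwd1, had an unadjusted p under 0.05. Grwd1, whose yeast counterpart is a chaperone of newly made Rpl3, measured 4.97, 6.50 and 5.66 FPKM in the control hearts and 4.04, 4.62 and 4.59 FPKM in the CKO hearts (limma adjusted p = 0.124). The groups did not overlap, as was true of 34.3% of genes tested. Mettl18, which methylates a histidine of Rpl3 in human cells, measured 1.37 ± 0.208 and 1.39 ± 0.206 FPKM (adjusted p = 0.966).

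Most genes of large-subunit assembly did not pass. Of 48 such genes tested, 2 rose, 1 fell and 45 did not pass, or 6.25% called against 11.2% of all genes. The 3 genes called were Nsa2, Ncl and Rsl24d1. Nsa2 rose from 13.3 ± 0.818 to 17.4 ± 0.609 FPKM and Ncl from 21.6 ± 1.43 to 29.3 ± 2.54 FPKM, while Rsl24d1 fell from 14.3 ± 0.722 to 10.6 ± 0.991 FPKM. None of the 3 passed in any of the 6 leave-outs, at adjusted p between 0.0523 and 0.158.

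Of 16 RNA polymerase I transcription genes, 2 rose and 14 did not pass, a share of 12.5% called that is near the 11.2% of all genes. Polr1e, a polymerase I subunit gene, measured 6.83, 7.76 and 9.23 FPKM in the control hearts and 20.3, 15.5 and 18.8 FPKM in the CKO hearts (limma, log2 difference 1.11, SE 0.14, adjusted p = 0.00815). Myc, a transcription factor gene that drives ribosome production, measured 2.26, 2.20 and 1.99 FPKM in the control hearts and 3.82, 3.71 and 4.35 FPKM in the CKO hearts (0.65, SE 0.09, adjusted p = 0.0102). In both genes every CKO library exceeded every control, and both calls held without each library in turn.

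Among translation factors, 3 of 38 initiation genes rose and 35 did not pass, or 7.89% called against 11.2% of all genes. Eif4ebp1, which encodes an inhibitor of cap-dependent initiation, rose from 28.0 ± 1.0 to 68.8 ± 15.8 FPKM (limma adjusted p = 0.00897) and kept its call without each library in turn. Eif1a (0.0382) and Eif3c (0.0427) lost theirs in 5 leave-outs each, namely of each flox control, CKO 2 and CKO 3, at adjusted p of 0.0538 to 0.139. Of 13 elongation and termination genes tested, 2 rose (Eef1a1 and Eef2kmt) and 1 fell (Eef1a2), or 23.1% called against 11.2% of all genes. Eef2kmt, the gene of a methyltransferase of elongation factor 2, rose from 4.47 ± 0.416 to 6.71 ± 0.635 FPKM (0.0275), but did not pass when flox control 1 (0.107), flox control 3 (0.0931), CKO 2 (0.0587) or CKO 3 (0.0754) was left out.

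The elongation factor pair resembles the uL3 pair, since Eef1a1 is the form of most cells and Eef1a2 the form of adult muscle and neurons. Eef1a2 measured 429, 438 and 406 FPKM in the control hearts and 245, 197 and 259 FPKM in the CKO hearts. Eef1a1 measured 739, 930 and 819 FPKM in the control hearts and 1336, 1324 and 1274 FPKM in the CKO hearts. The muscle form was thus lower in every CKO library and the general form higher, with log2 differences of -0.87 (SE 0.15, limma adjusted p = 0.0169) and 0.67 (SE 0.16, adjusted p = 0.0421). Eef1a2 did not pass when flox control 1 (0.0778), 2 (0.0590) or 3 (0.0615) was left out, and Eef1a1 did not pass in any of 6 leave-outs (0.0693 to 0.167). The ratio of Eef1a2 to Eef1a1 was 0.516 ± 0.0574 in controls and 0.179 ± 0.0277 in CKO (SD, n = 3 each).

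Rpl3l and Rpl3 were set beside 11 pairs of this kind, in which an adult muscle form has a ubiquitous or fetal paralog. In each of these 11 pairs the mean log2 ratio of muscle form to paralog was lower in CKO, and in 10 the groups did not overlap, Cox6a2 to Cox6a1 being the exception. For single genes rather than ratios, 34.3% of those tested did not overlap. The pairs were chosen with results of some of their genes known. The shift of -2.71 for Rpl3l to Rpl3 was exceeded in 2 pairs. The ratio of Tnni3 to Tnni1, the cardiac and slow skeletal troponin I genes, shifted by -3.51, and that of Slc2a4 to Slc2a1, the insulin-responsive and basal glucose transporter genes, by -3.21. A smaller shift was seen for Myh6 to Myh7 (-2.39), the fast and slow myosin heavy chain genes. That value rests on single libraries, being -1.49 when CKO 1 was left out and -3.13 when CKO 2 was, the latter beyond Rpl3l to Rpl3 without the same library (-2.36). Eno3 to Eno1 (-1.74), the muscle and general enolase genes, Eef1a2 to Eef1a1 (-1.54) and Ckm to Ckb (-1.36), the muscle and general creatine kinase genes, followed. Next came Cox7a1 to Cox7a2 (-1.13), subunits of cytochrome c oxidase, and Pgam2 to Pgam1 (-0.83), phosphoglycerate mutases. The least shifted were Pygm to Pygb (-0.71), Cox8b to Cox8a (-0.69) and Cox6a2 to Cox6a1 (-0.69).

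**Figure D3:**
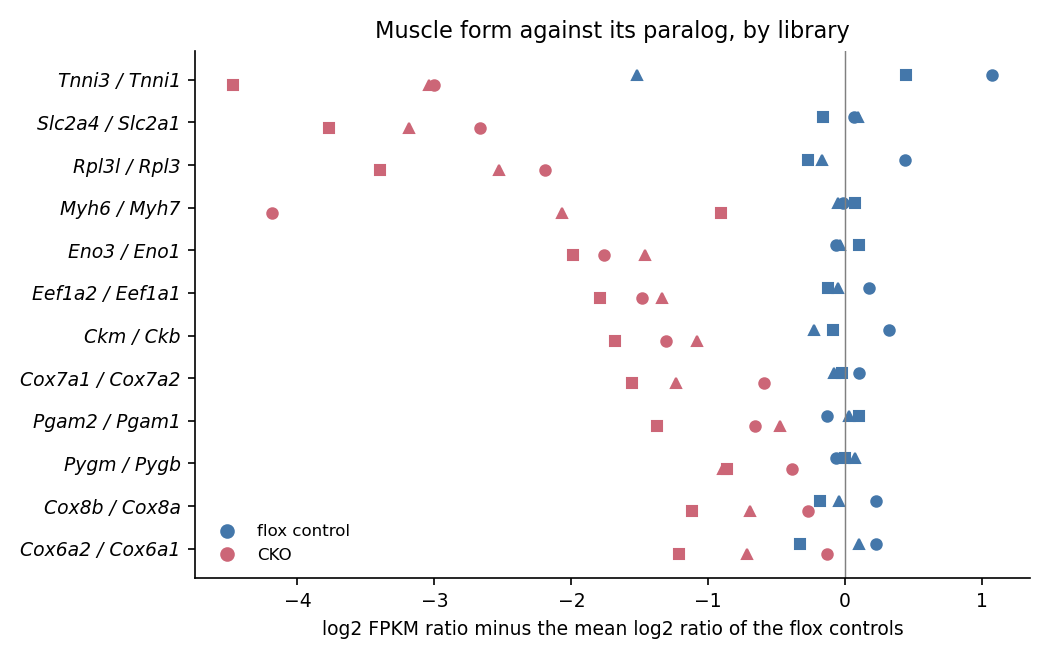
Log2 FPKM ratio of the muscle form to its paralog in each library, minus the mean log2 ratio of the flox controls, for Rpl3l to Rpl3 and 11 other pairs; circles, squares and triangles are replicates 1, 2 and 3. CKO libraries lie left of the controls in every pair but Cox6a2 to Cox6a1, where they overlap, and Rpl3l to Rpl3 has the shift of rank 3 (rank 4 when CKO 2 is left out).

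Which side of a pair moved differed between pairs. Of the 11 muscle forms, 4 fell and 7 did not pass, 36.4% called lower where 5.49% of all genes were. Of the 11 paralogs, 4 rose and 7 did not pass, 36.4% called higher where 5.69% of all genes were. The pairs were chosen with results of some of their genes known, so nothing is read from these shares. The counts also hung on single libraries. With any 1 control left out, 1 muscle form was called lower, and with any 1 CKO library left out, 3 were. Paralogs called higher were 0, 1 and 1 when flox control 1, 2 or 3 was left out, and 5, 3 and 0 when CKO 1, 2 or 3 was.

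Slc2a4 and Slc2a1 moved on both sides. Slc2a4 fell from 70.6 ± 6.09 to 29.1 ± 3.21 FPKM (limma adjusted p = 0.00467), and Slc2a1 rose from 3.14 ± 0.503 to 12.5 ± 4.71 FPKM (0.0149). The Slc2a4 call held without each library in turn, while Slc2a1 did not pass when flox control 1 (0.0629), flox control 3 (0.0603) or CKO 3 (0.0541) was left out. In Myh6 and Myh7 neither gene passed (0.482 and 0.0871), although Myh7 did when CKO 2 was left out (0.0302) or after rescaling to the same sum (0.0449). Reads of Myh7 and of the antisense gene Mhrt next to it cannot be told apart without strand. Tnni3 fell and Tnni1 rose with wide spread, at 1.33, 2.06 and 7.64 FPKM of Tnni1 in the control hearts and 13.01, 33.8 and 15.3 FPKM in the CKO hearts. The Tnni1 call (0.0424) did not outlast the removal of flox control 1 (0.132), flox control 2 (0.124), CKO 2 (0.105) or CKO 3 (0.0911), and the Tnni3 call (0.0314) was lost in each leave-out except that of CKO 3 (0.0679 to 0.123). Cox7a1 fell (0.0361), a call lost without any 1 flox control or CKO 3 (0.0729 to 0.129). Eno1 rose (0.0214), a call lost without any 1 flox control or CKO 3 (0.0625 to 0.0858).

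Genes next to Rpl3l on chromosome 17 differed in mixed directions. Of 13 genes within 50 kb, 6 were tested, with 1 called higher and 1 lower, where 11.2% of all genes were called in either direction. Msrb1, which starts 499 bases beyond the end of Rpl3l on the same strand, measured 77.5 ± 19.4 and 90.0 ± 29.8 FPKM (limma adjusted p = 0.693). Ndufb10, a respiratory complex I subunit gene 3342 bases before Rpl3l on the other strand, fell from 410 ± 64.2 to 251 ± 36.0 FPKM (0.0473), but passed in none of the 6 leave-outs (0.0580 to 0.137). Rps2, the next ribosomal protein gene at a distance of 5891 bases, measured 305, 372 and 300 FPKM in the control hearts and 246, 257 and 263 FPKM in the CKO hearts. Its difference was the lowest among the 77 large- and small-subunit genes tested, paralogs apart, but did not pass (-0.34, adjusted p = 0.153). Gfer, a sulfhydryl oxidase gene of the mitochondrial intermembrane space, rose from 7.04 ± 0.424 to 12.6 ± 0.631 FPKM (0.00607) and kept its call without each library in turn. Zfp598 (0.428) and Tbl3 (0.929) did not pass.

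Around Rpl3 on chromosome 15, 3 of 7 genes within 50 kb were tested and none was called (2 at an unadjusted p under 0.05, and none by voom). The bounds of Rpl3 and Syngr1, a synaptogyrin gene on the opposite strand, overlap by 535 bases, but no annotated exon base is shared. Syngr1 measured 11.7 ± 1.08 and 8.34 ± 1.27 FPKM (limma adjusted p = 0.0666). Tab1, a kinase adaptor gene, measured 10.99 ± 0.495 and 8.86 ± 1.17 FPKM (0.135). Introns of Rpl3 hold small nucleolar RNA genes, of which Snord83b passed the filter at 1.94 ± 1.70 and 1.70 ± 1.07 FPKM (0.977).

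Across the 6 libraries, the genes whose log2(FPKM + 1) profile was most like that of Rpl3l were Svip (Pearson r = 0.995), Rnf123 (0.993), Acaa1a (0.993), Gstk1 (0.993) and Lpin1 (0.992), of 6590 genes compared. Svip encodes a small VCP-interacting protein, Rnf123 a ubiquitin ligase, Acaa1a a peroxisomal thiolase, Gstk1 a glutathione transferase and Lpin1 a phosphatidate phosphatase. These are descriptions: the points share the split between genotypes, and no p is attached. In all 5 genes, as in Rpl3l, CKO 2 was the lowest library and flox control 1 the highest. Gstk1 measured 17.6, 17.1 and 12.7 FPKM in the control hearts and 6.11, 2.69 and 4.06 FPKM in the CKO hearts. Lpin1 measured 16.4, 14.0 and 12.4 FPKM in the control hearts and 6.19, 4.06 and 4.74 FPKM in the CKO hearts.

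The genes most like Rpl3 were Rps16 (r = 0.993), Arpc4 (0.989), Rae1 (0.986), Mrpl52 (0.985) and Gm5641 (0.979). Rps16 encodes a small-subunit ribosomal protein, Arpc4 a subunit of the actin-nucleating Arp2/3 complex, Rae1 an RNA export factor and Mrpl52 a mitochondrial ribosomal protein. Rps16 measured 110, 146 and 120 FPKM in the control hearts and 156, 154 and 157 FPKM in the CKO hearts, low in flox control 1 and close to the CKO level in flox control 2, as Rpl3 was. The r between Rpl3l and Rpl3 themselves was -0.763.

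**Figure D4:**
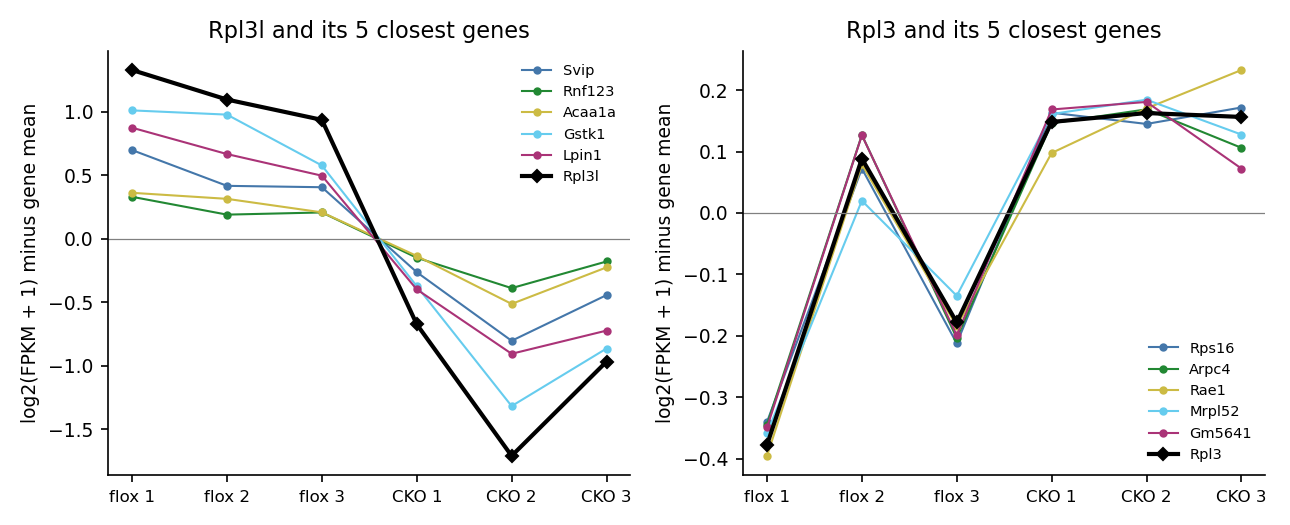
Log2(FPKM + 1) minus the mean of the gene over 6 libraries, for Rpl3l (left) and Rpl3 (right), in black, and the 5 genes most correlated with each; lines join the values of 1 gene and carry no order among replicates. The Rpl3l panel separates controls from CKO with CKO 2 lowest, and in the Rpl3 panel flox control 2 lies near the CKO libraries while flox controls 1 and 3 lie below 0.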

How the data were processed

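Heart messenger RNA of 6 mice was sequenced, 3 per genotype, grouped by the sample titles. Per the labels' protocols, libraries came from poly-A RNA with random hexamer priming, a fragment size of 370 to 420 bp was selected, and paired reads had 150 bp; strand is not mentioned there. The authors deposited FPKM per gene and library. Per the submitters' processing notes the tools were featureCounts 1.5.0-p3, HISAT2 2.0.5, CASAVA and DESeq2 1.20.0, and the build GRCm38.p6. How reads with several matches were counted is not given in the sources used here. Reads behind each FPKM were recovered through the gene lengths, and 100% of values came out whole within 0.001.

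Genes averaging at least 1 FPKM were tested as log2(FPKM + 1), where differences of weakly expressed genes come out too small, by limma 3.58.1 under R 4.3.3 (variance trend, genotype only, two-sided, Benjamini-Hochberg adjusted p under 0.05). All adjusted p-values are from such fits. Rpl3l and Rpl3, the gene lists and the pairs were chosen with earlier results of these data known; 1 pair is not reported here and enters no count of pairs. Named genes are both members, all pair genes, up to 4 called members per list by adjusted p (or 2 where none passed), Grwd1, Mettl18, tested genes within 50 kb and the 5 most correlated genes of at least 5 FPKM; others were chosen after their values were seen, and not all are described. Transcripts and sequences are from GENCODE (GRCm38), whose exon unions equal the deposited lengths of both genes. The fit was also run on simulated reads with the same spread for all genes, a simpler setting than these data, and nothing is read from that run. Alternatives changed the pseudocount, filter, scaling or tool (voom), added a replicate block or left out 1 library. Python 3.11.15 with pandas 2.3.3, numpy 2.4.6 and scipy 1.17.1 made tables and figures.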

Additional observations from a re-analysis of the deposited data

How the results depend on the processing

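The differences of Rpl3l, Rpl3 and their ratio moved by less than 1 SD of the replicates under every alternative run for them, with log2 differences of -2.46 to -1.94 for Rpl3l, 0.20 to 0.43 for Rpl3 and -2.96 to -2.36 for the ratio. The number of genes called was less stable: 1358 with all libraries, 316 to 1492 with 1 library left out, 798 with no filter and 715 with the replicate number as a block. Same-numbered libraries deviated from their group means with correlations of 0.139, 0.0597 and -0.00548, so the numbers were not taken to pair the samples. With 1 library of each number in each group, the block cannot move the differences of Rpl3l (-2.24), Rpl3 (0.31) and their ratio (-2.71), which therefore say nothing on it. Changes of filter cannot move the differences of the genes either, and changes of length cannot move that of the ratio. Scaling by trimmed mean factors (TMM) was close to the deposited scaling, at -2.24 for Rpl3l and 0.31 for Rpl3, and says little more. Rescaling to TPM called 1006 genes, and rescaling to the same sum, added after seeing the data like the transcript lengths and the copies, called 989. Over 57 of the genes named, 641 of 795 values kept their direction and side of the threshold, 133 lost a call, 7 gained one and 14 changed sign. The last were of genes that had not passed. Genes named only as cell type markers, such as Tcf21, Vwf, Tie1, Abcc9, Nppa and Sln, were not among the 57. Nor were some others, such as the neighbours Zfp598, Tbl3, Tab1 and Snord83b. Over leave-outs Mettl18 ran from -0.0639 to 0.0831, Cox7a2 from -0.167 to 0.0726, Pgam2 from -0.193 to 0.170 and Msrb1 from -0.0555 to 0.362. With TPM scaling and same-sum scaling Cox7a2 gave 0.0311 and 0.0310, and Pgam2 0.0446 and 0.0446. The cause was not tested. The 3 libraries a group and 147 to 309 Rpl3l reads in CKO limit the precision.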
